A study of Mus musculus with 2 samples.

Results

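Collagen genes of ES-E14, a mouse embryonic stem cell line of a male embryo of strain 129/Ola, were examined in total RNA-seq. Members were all protein-coding genes of the GENCODE annotation whose symbol has the form Col, a number, the letter a and a number, and 44 of the 43346 genes in the deposited tables met this rule. They fell into 11 fibrillar genes, 6 type IV genes and 27 others. The design was a single group of 2 libraries, replicate 1 and replicate 2 by their labels, and no treatment, passage, medium or feeder layer is given in the sources used here. The labels number the libraries as separate biological replicates but give both 1 source sample, and whether their spread is biological or technical is not settled. With 1 library on each side of every difference there was no test, and differences are given as descriptions. Levels are in TPM, a relative abundance corrected for transcript length and given in the order replicate 1, replicate 2. A mean ± SD is over n = 2 libraries.

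Collagens are secreted proteins in which 3 chains wind into a triple helix, which requires glycine once in every 3 residues. Fibrillar collagens assemble into the banded fibres of skin, bone, tendon and cartilage. Type IV collagens form the sheet-like network of basement membranes, the first extracellular matrix laid down by the embryo. The other types decorate fibrils, anchor basement membranes, form beaded filaments, span the plasma membrane or carry fragments with signalling roles, such as endostatin of type XVIII.

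The glycine repeat was visible in the coding sequences. Fibrillar members carried a median of 338 uninterrupted repeats of a glycine codon followed by any 2 codons, against 43.5 in type IV members and 45 in the others. Of the 647 coding exons of the fibrillar genes, taken from the longest coding transcript, 305 were exactly 54 bases long (47.1%). The share was 4.05% of 296 exons in type IV genes, 14.4% of 1058 in the other collagen genes and 0.441% of 192403 in other protein-coding genes. An exon of this length is shown for the 4 fibrillar genes that differed most between the libraries, because their sequences show the repeat that these genes share. Each is a coding exon of GRCm38 written 5′ to 3′ on the coding strand, with the glycine codon (GGN) that opens each group of 3 codons in capitals; any further GGN codon is in lower case. The exon of Col1a1 is exon 8 of 51 in Col1a1-201, chr11:94939904-94939957, plus strand. That of Col1a2 is exon 8 of 52 in Col1a2-201, chr6:4515481-4515534, plus strand. That of Col3a1 is exon 6 of 51 in Col3a1-201, chr1:45325360-45325413, plus strand. That of Col5a2 is exon 10 of 54 in Col5a2-201, chr1:45422386-45422439, minus strand.
Col1a1: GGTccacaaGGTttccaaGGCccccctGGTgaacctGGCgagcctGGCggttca
Col1a2: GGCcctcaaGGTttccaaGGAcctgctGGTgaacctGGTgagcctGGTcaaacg
Col3a1: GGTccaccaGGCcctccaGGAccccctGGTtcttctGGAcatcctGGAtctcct
Col5a2: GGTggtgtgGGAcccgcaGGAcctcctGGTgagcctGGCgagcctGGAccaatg

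The gene tables held 43163300 and 45573512 expected counts on genes. Models of ribosomal RNA took 26.4% and 16.4% of them, so the libraries differed in composition. Collagen genes took 76393 counts in replicate 1, 0.177% of all (95% Wilson interval 0.176 to 0.178%), and 102561 in replicate 2, 0.225% (0.224 to 0.226%). These intervals cover counting error only, and the totals include the ribosomal models. Of the TPM of protein-coding genes, collagen genes took 0.101% in replicate 1 and 0.107% in replicate 2, so the shares differed less on that scale. All 8 pluripotency markers were above 1 TPM in both libraries, led by Tdgf1, a co-receptor gene of stem cells, at 318.39 and 197.95 TPM, Pou5f1, which encodes OCT4, at 162.43 and 201.07 TPM, and Zfp42 (REX1) at 78.23 and 114.76 TPM. The median difference of protein-coding genes averaging at least 1 TPM was 0.23 on the log2(TPM + 1) scale, higher in replicate 2. It was 0.02 with TMM scaling, which sets the libraries to a common centre, so small positive differences are within the shift between scales.

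On the deposited scale most collagen genes were low. At 1 TPM or more in both libraries stood 11 of 44 members, 25.0%, against 46.3% of 21474 protein-coding genes. They were 5 fibrillar genes (Col1a1, Col1a2, Col2a1, Col3a1 and Col5a1), the type IV genes Col4a1 and Col4a2, and the others Col7a1, Col9a2, Col9a3 and Col18a1. In both libraries 23 members were under 1 TPM. The number of members at 1 TPM or more was 13 in replicate 1 alone (background 47.5%) and 19 in replicate 2 alone (49.3%). The number that passed in both libraries was 22 at a limit of 0.5 TPM (background 52.6%), 6 at 5 TPM (24.4%) and 14 with posterior mean TPM (47.3%). With TPM rescaled so that nuclear protein-coding genes make up the whole scale it was 29 of 44, against a background of 59.2%. Rescaling raises all values of a library by the same factor, that of Col1a1 from 7.21 to 38.6 in replicate 1. A rescaled limit of 1 is thus a lower limit in deposited TPM. Whether the share of members lay below the background depended on the limit. All 44 members had at least 1 expected count in each library.

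**Figure D1:**
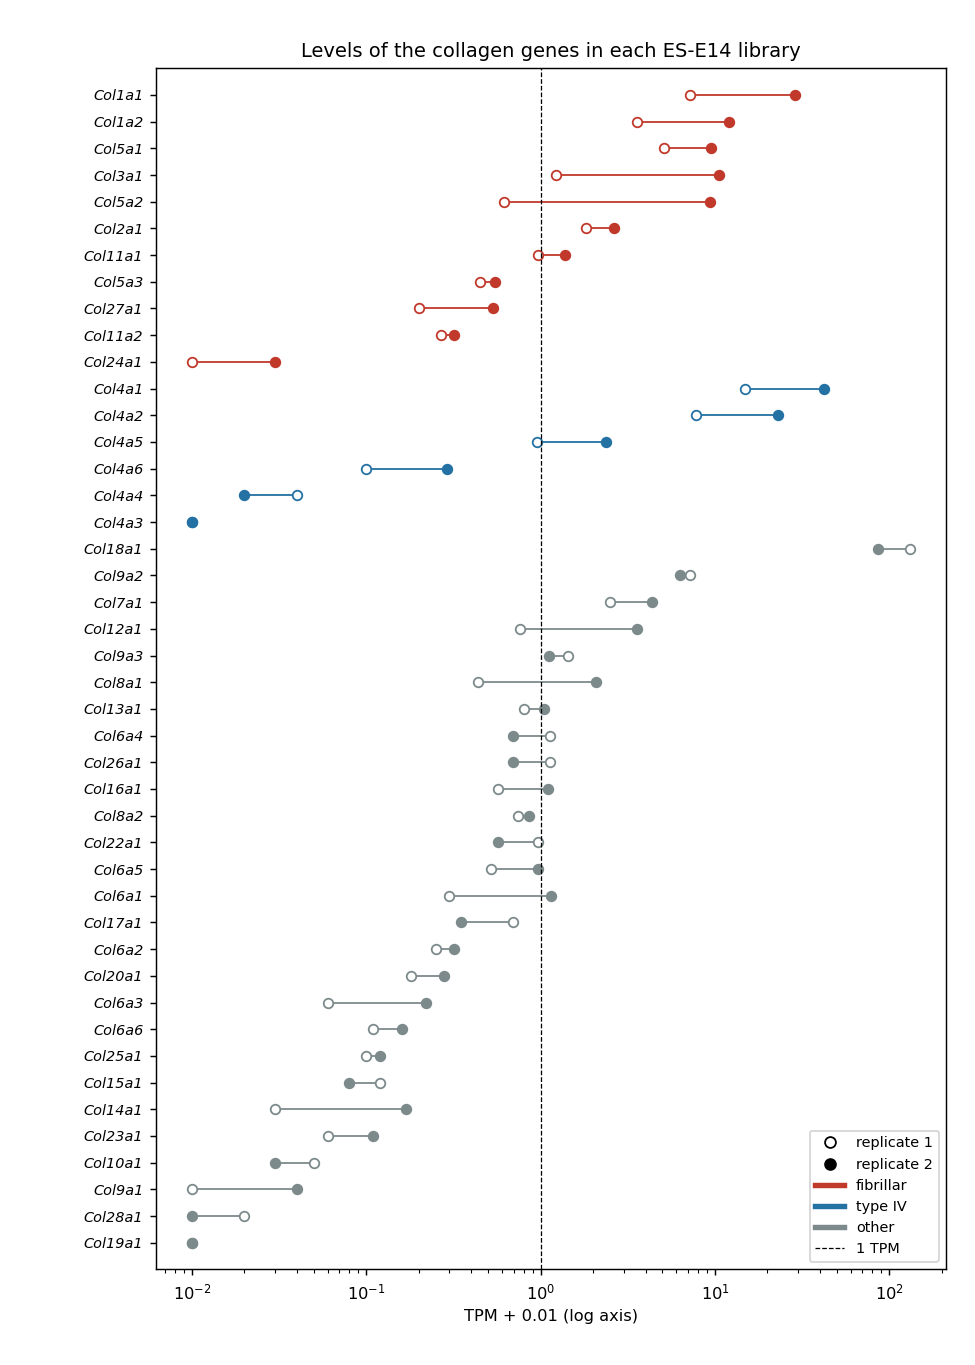
TPM + 0.01 (log axis) of the 44 collagen genes, ordered by mean within fibrillar (red), type IV (blue) and other (grey) genes; open circles are replicate 1, filled circles replicate 2, and the dashed line marks 1 TPM. Col18a1 stands highest at 131.1 and 86.52 TPM, and the fibrillar genes and 4 of the 6 type IV genes lie further right in replicate 2.

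The highest collagen gene in both libraries was Col18a1 (ENSMUSG00000001435, chromosome 10, 77052178 to 77166548, minus strand), the gene of the basement membrane collagen whose end fragment is endostatin. It stood at 131.1 and 86.52 TPM, or 109 ± 31.5 TPM (SD, n = 2), and held 66.9% and 33.8% of the summed collagen TPM. Its mean lay above that of 98.7% of protein-coding genes. Its level was lower in replicate 2, by 0.59 on the log2(TPM + 1) scale, which is within 2-fold. The next gene, Col4a1, was at 14.88 and 42.08 TPM, below Col18a1 in both libraries.

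Nearly all Col18a1 output was assigned to the transcript with the upstream start. Col18a1-202, which starts at 77166548, took 98.5% and 97.7% of the gene's TPM. Of the coding transcripts that start downstream, Col18a1-203 (from 77113705) took 0.58% and 0.48%, and Col18a1-201 (from 77113946) 0.15% and 0.2%. The short Col18a1-204 (717 bases, from 77089428) took 0.47% and 1.28%. RefSeq promoter windows of GRCm38.p6, from 250 bases before to 50 bases after a start, are shown for the starts of Col18a1-202 and Col18a1-203 because the gene's output was so unequal between them. Their start sites lie at 77166530 and 77113705. Capitals mark 2 motifs on either strand, CCAAT and GGGCGG. The upstream window, chr10:77166481-77166780, minus strand, holds CCAAT 1 time and GGGCGG 3 times. In the downstream window, chr10:77113656-77113955, minus strand, these letters are not found. Of all 32851 windows in the table, 37.4% hold CCAAT and 35.7% GGGCGG. A match is a description of the sequence and not a binding site.
Col18a1 upstream: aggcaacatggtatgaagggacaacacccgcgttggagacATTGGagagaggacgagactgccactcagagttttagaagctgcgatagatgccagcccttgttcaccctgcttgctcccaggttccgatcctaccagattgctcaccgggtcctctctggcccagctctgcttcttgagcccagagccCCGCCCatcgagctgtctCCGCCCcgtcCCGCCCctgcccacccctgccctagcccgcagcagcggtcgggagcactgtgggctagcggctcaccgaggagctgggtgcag
Col18a1 downstream: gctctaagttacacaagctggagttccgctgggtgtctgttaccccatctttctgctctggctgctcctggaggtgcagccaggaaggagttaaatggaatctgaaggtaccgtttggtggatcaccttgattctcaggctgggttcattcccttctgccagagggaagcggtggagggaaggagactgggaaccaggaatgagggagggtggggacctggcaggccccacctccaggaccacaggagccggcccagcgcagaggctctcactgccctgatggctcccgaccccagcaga

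Fibrillar genes were higher in replicate 2, with 4 of 11 at least 2-fold higher. A difference of at least 1 on the log2(TPM + 1) scale is called 2-fold here. By this rule 8 of all 44 members were higher in replicate 2, against a background of 1.32% of 21474 protein-coding genes, and 0 were lower, against 0.265%. Since genes near 0 cannot pass such a limit, the background was also taken over the 10480 protein-coding genes averaging at least 1 TPM, of which 2.59% were 2-fold higher and 0.544% lower. Of the 16 members in that set 8 were higher and 0 lower. A mean of 1 TPM can be reached through 1 library alone, so this set is not independent of the difference. Col5a2, Col12a1 and Col8a1 were under 1 TPM in replicate 1 (0.61, 0.75 and 0.43 TPM) and entered through replicate 2. The median difference was 0.37 for fibrillar genes, 0.51 for type IV genes, 0.06 for other collagen genes, 0.11 for all members and 0.03 for all protein-coding genes. The difference was positive for 31 of 44 members, against 55.4% of protein-coding genes, and with TMM scaling for 26, against 43.3%. These background shares count genes with a difference of exactly 0. On the TPM scale such genes were 4100 of 21474 protein-coding genes and 2 of 44 members, so the shares are not on an equal footing. Negative differences were found for 5469 protein-coding genes and 11 members. With TMM scaling 11 members were 2-fold higher (background 1.34%) and 1 lower (1.49%), and DESeq2 size factors gave 11 (1.44%) and 1 (1.35%). The number higher was 9 with rescaled TPM (background 1.74%) and 14 with a pseudocount of 0.1 (5.65%). The 8 genes named in the plot of the libraries passed under each of these scales. These counts describe 1 pair of libraries.

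Col5a2 and Col3a1 differed most. Col5a2 (ENSMUSG00000026042; chromosome 1, 45374321 to 45503282, minus strand), a chain of the type V collagen that sets fibril diameter, stood at 0.61 and 9.37 TPM from 301 and 4215 counts. That is 15.4 times higher in replicate 2, and the deposited TPM intervals, 0.569 to 0.936 and 8.90 to 10.1, lay far apart. Col3a1 (ENSMUSG00000026043; chromosome 1, 45311538 to 45349706, plus strand), the homotrimer of elastic tissues such as vessel wall, stood at 1.21 and 10.47 TPM from 509 and 3953 counts, 8.65 times higher. These genes are neighbours and point towards each other, with 24614 bases between their ends. The deposited intervals describe the estimate within a library and not the spread between cultures.

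The chains of type I collagen, the main protein of bone and skin, differed less. Col1a1 (ENSMUSG00000001506; chromosome 11, 94936224 to 94953042) stood at 7.21 and 28.84 TPM, 18.02 ± 15.3 TPM (SD, n = 2). Col1a2 (ENSMUSG00000029661; chromosome 6, 4504814 to 4541544) stood at 3.58 and 12.06 TPM, 7.82 ± 6.00 TPM (SD, n = 2). Each was higher in replicate 2, 4 and 3.37 times. Type I molecules contain a pair of Col1a1 chains and a single Col1a2 chain, and the ratio of Col1a1 to Col1a2 in TPM was 2.01 in replicate 1 and 2.39 in replicate 2. This is a ratio of RNA, and chains in protein were not measured.

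Col5a1, the partner of Col5a2 in type V molecules, was closer between the libraries at 5.1 and 9.48 TPM, within 2-fold on the scale used. The ratio of Col5a1 to Col5a2 was therefore 8.36 in replicate 1 and 1.01 in replicate 2. Col2a1, the cartilage fibril chain, stood at 1.81 and 2.63 TPM, and Col11a1, which joins it in those fibrils, at 0.95 and 1.37 TPM. The remaining fibrillar genes were low. Col5a3 stood at 0.44 and 0.54 TPM, Col27a1 at 0.19 and 0.52 TPM, and Col11a2 at 0.26 and 0.31 TPM. Col24a1 had 2 and 9 counts. On the TPM scale 11 of 11 fibrillar genes had a positive difference, but with TMM scaling 9 did, the exceptions being Col5a3 and Col11a2.

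**Figure D2:**
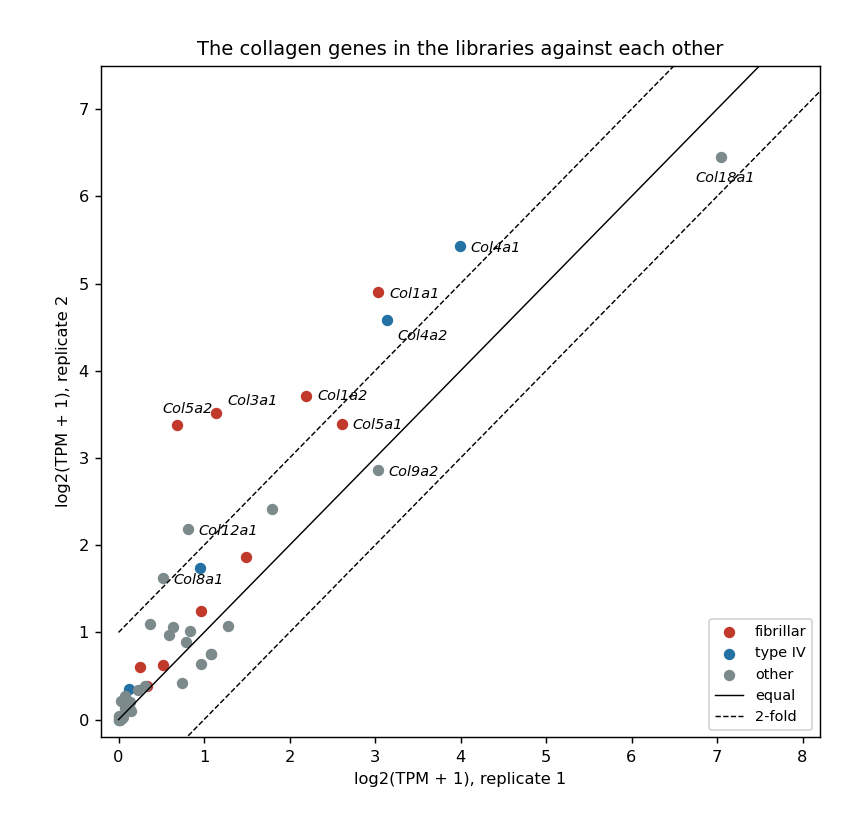
log2(TPM + 1) of the collagen genes in replicate 2 (vertical) against replicate 1 (horizontal); the solid line marks equal levels and the dashed lines a 2-fold difference. The 8 genes beyond the upper dashed line are Col5a2, Col3a1, Col1a1, Col1a2, Col4a1, Col4a2, Col12a1 and Col8a1, and no gene lies beyond the lower one.

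The major type IV genes had like differences. Col4a1 (ENSMUSG00000031502; chromosome 8, 11198423 to 11312826, minus strand) stood at 14.88 and 42.08 TPM, and Col4a2 (ENSMUSG00000031503; chromosome 8, 11312805 to 11449287, plus strand) at 7.81 and 22.91 TPM. Each was 1.44 higher in replicate 2 on the log2(TPM + 1) scale. Their products form molecules of a pair of Col4a1 chains and a single Col4a2 chain. The ratio of Col4a1 to Col4a2 in TPM was 1.91 in replicate 1 and 1.84 in replicate 2. It too is a ratio of RNA, and such ratios were not stable for all pairs (Col5a1 to Col5a2, 8.36 and 1.01).

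These genes lie head to head on opposite strands, and their annotated first exons overlap by 22 bases, so reads there are uncertain. Their RefSeq promoter windows (GRCm38.p6) are shown because the genes are transcribed outward from the same stretch and had like differences between the libraries. The windows are chr8:11312777-11313076, minus strand, for Col4a1 and chr8:11312555-11312854, plus strand, for Col4a2. Capitals mark the 78 bases that the windows share, 11312777 to 11312854, read from opposite strands. Their GC content was 74.0% and 73.7%, against a median of 52.7% over all 32851 windows. The Col4a1 window holds CCAAT 1 time and GGGCGG 1 time on either strand, and the Col4a2 window 1 and 3 times. TATAAA, found in 13.6% of all windows, is in neither.
Col4a1: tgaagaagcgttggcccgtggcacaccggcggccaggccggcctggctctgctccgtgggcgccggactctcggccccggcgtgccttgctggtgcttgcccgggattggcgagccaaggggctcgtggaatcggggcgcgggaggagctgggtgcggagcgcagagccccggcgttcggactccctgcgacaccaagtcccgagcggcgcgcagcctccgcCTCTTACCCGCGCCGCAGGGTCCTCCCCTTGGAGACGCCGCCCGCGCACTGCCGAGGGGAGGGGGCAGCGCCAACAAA
Col4a2: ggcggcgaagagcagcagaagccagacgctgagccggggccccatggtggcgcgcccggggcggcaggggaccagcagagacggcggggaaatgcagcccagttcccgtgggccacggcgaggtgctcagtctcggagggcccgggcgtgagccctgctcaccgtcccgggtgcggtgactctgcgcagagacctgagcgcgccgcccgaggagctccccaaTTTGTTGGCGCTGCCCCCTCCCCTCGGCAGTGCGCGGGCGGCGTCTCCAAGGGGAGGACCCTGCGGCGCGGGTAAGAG

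The other type IV genes, which are also arranged as head-to-head pairs, were low. Col4a5 and Col4a6, whose chains join in the basement membranes of skin and smooth muscle, have starts 1309 bases apart on chromosome X. Col4a5 stood at 0.94 and 2.35 TPM and Col4a6 at 0.09 and 0.28 TPM. Col4a5 was 2.5 times higher in replicate 2 in TPM, but its log2(TPM + 1) difference was 0.79, because the added 1 weighs on low values. The difference was 1.24 with a pseudocount of 0.1 and 1.16 with TMM scaling. Col4a3 and Col4a4, chains of the filtration barrier in the kidney, have starts 72 bases apart on chromosome 1. They had 2 and 1 counts, and 7 and 9 counts. A head-to-head position was thus shared by pairs at high and at very low levels.

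**Figure D3:**
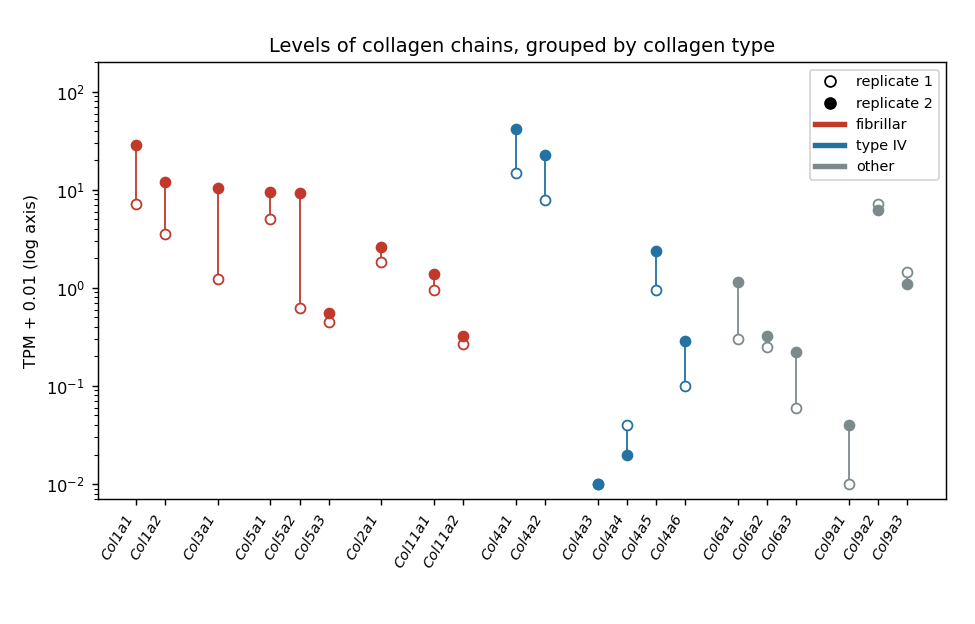
TPM + 0.01 (log axis) of chains grouped by collagen type; open circles are replicate 1, filled circles replicate 2, joined by a line. Col4a1 and Col4a2 are displaced by like distances between the libraries, whereas Col5a2 is displaced further than Col5a1 and comes level with it in replicate 2.

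Among the other collagen genes 2 of 27 were 2-fold higher in replicate 2. Col12a1, a collagen attached to fibril surfaces, stood at 0.75 and 3.54 TPM from 456 and 2020 counts. Col8a1, of the short-chain network beneath endothelium and cornea, stood at 0.43 and 2.08 TPM from 167 and 764 counts, while its partner Col8a2 stood at 0.73 and 0.85 TPM. Both were above the level of replicate 1 by more than 4 times, 4.72 and 4.84. Col7a1, which anchors the epidermis to the dermis, stood at 2.48 and 4.33 TPM.

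Type IX chains, which coat cartilage fibrils, were present unequally. Col9a2 stood at 7.17 and 6.26 TPM, 6.72 ± 0.643 TPM (SD, n = 2), and Col9a3 at 1.43 and 1.1 TPM. Col9a1 had 1 and 9 counts. The type IX molecule contains all 3 chains, and these levels were of Col9a2 and Col9a3 with little Col9a1. Col9a3 shares 234 exon bases with Tcfl5 on the opposite strand, which had 1018 and 1491 counts, so its value is uncertain.

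Type VI genes, which form the beaded filaments around cells, had means from 0.125 to 0.9 TPM. Col6a1 stood at 0.29 and 1.14 TPM, Col6a2 at 0.24 and 0.31 TPM and Col6a3 at 0.05 and 0.21 TPM. Col6a4 was the highest by mean of gene TPM, at 1.12 and 0.68 TPM. Its coding transcript Col6a4-201 held 0.57 and 0.28 TPM, a mean of 0.425 TPM, below the 0.715 TPM of Col6a1-201. Col6a4-203, which is not annotated as coding, held 0.55 and 0.27 TPM. Col6a4 was the only member that passed the 2-fold limit downward with TMM scaling (-1.10 on the log2 scale). With that scaling Col6a1 (1.31) and Col6a3 (1.07) passed it upward. Their TPM ratios were 3.93 and 4.2, but the added 1 TPM kept their log2(TPM + 1) differences at 0.73 and 0.20. Transmembrane collagens had means from 0.075 to 0.91 TPM, with Col13a1 the highest and Col23a1 the lowest. Of the remaining fibril-associated genes, Col16a1 stood at 0.56 and 1.09 TPM and Col22a1 at 0.95 and 0.56 TPM. Of Col16a1, the coding transcript Col16a1-201 held 0.07 and 0.17 TPM and Col16a1-210 held 0 and 0.17 TPM. Col26a1 stood at 1.12 and 0.68 TPM, of which Col26a1-201 held 0.38 and 0.31 TPM and Col26a1-202 held 0.11 and 0 TPM. The rest of the TPM of Col16a1 and Col26a1 was on transcripts not annotated as coding. Col15a1, the other endostatin-type collagen, had 13 and 9 counts, against 49662 and 30991 for Col18a1. Col10a1, a marker of hypertrophic cartilage, had 9 and 5 counts, Col28a1 had 3 and 1, and Col19a1 had 2 and 1.

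Most of the output of the well-expressed genes was on coding transcripts. Of the 11 genes that reached 1 TPM in both libraries, 10 had the same leading transcript in each. Col4a1-201, Col4a2-201, Col1a1-201, Col1a2-201 and Col5a1-201 each took more than 96% of their gene's TPM, from 96.2% to 100%. The exception was Col2a1. Col2a1-202 led in replicate 1 with 54.3%, and Col2a1-201 in replicate 2 with 53.3%. The transcripts differ by exon 2 of Col2a1-201, 204 bases at 98000403 to 98000606 on chromosome 15, and by the length of exon 1. Their counts were 359.34 and 362.98 for Col2a1-202, and 318.66 and 512.99 for Col2a1-201. Inclusion of exon 2 is known as the form of cartilage progenitors, and skipping as that of mature cartilage.

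Some TPM values rested on short transcripts that are not annotated as coding. On the TPM scale a few reads on a short model weigh heavily. Coding transcripts of Col7a1 held 48.0% and 53.7% of its TPM but 96.1% and 97.1% of its counts, and the coding TPM was 1.2 and 2.32. Those of Col9a2 held 65.0% and 68.1% of TPM, and those of Col9a3 63.9% and 52.7%. The median over protein-coding genes that reached 1 TPM in both libraries was 93.1% and 94.5%. Restricted to coding transcripts, Col9a3 stood at 0.92 and 0.58 TPM, under 1 TPM in both libraries. The differences of Col5a2 (2.62), Col3a1 (2.37), Col1a1 (1.83), Col1a2 (1.48), Col4a1 (1.41), Col4a2 (1.40), Col12a1 (1.302) and Col8a1 (1.11) stayed above 1 on coding transcripts alone.

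**Figure D4:**
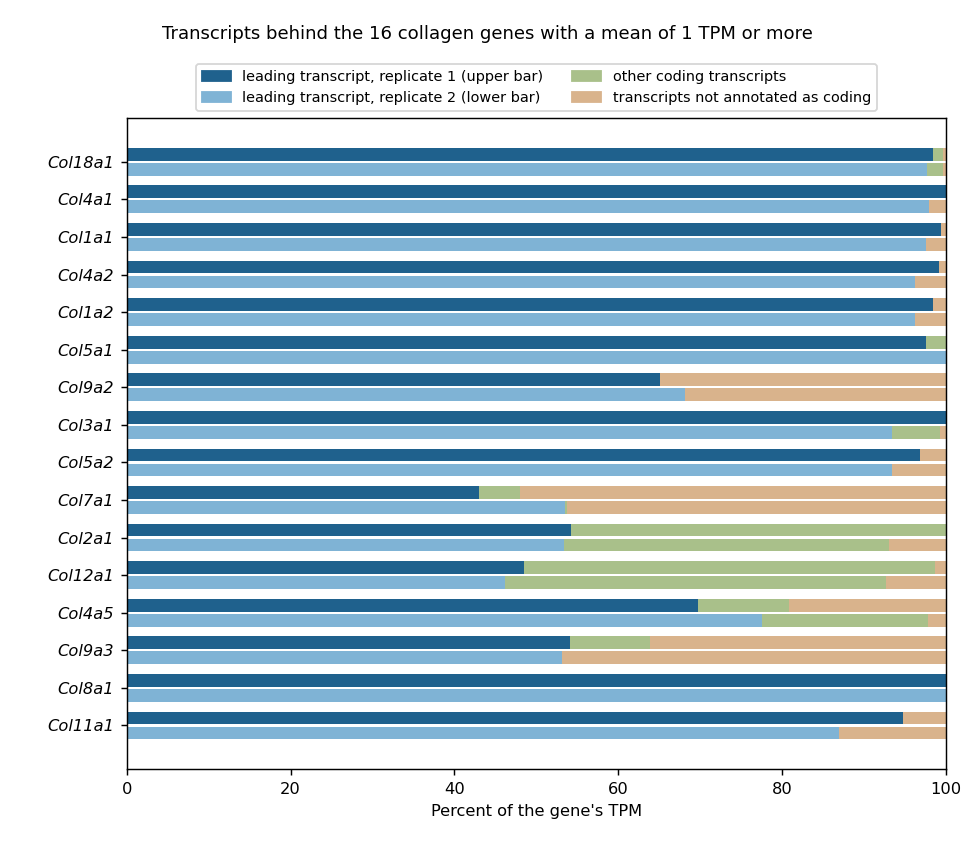
Percent of each gene's TPM on its leading transcript (blue; dark for replicate 1 in the upper bar, light for replicate 2 in the lower bar), on other coding transcripts (green) and on transcripts not annotated as coding (tan), for the 16 collagen genes averaging at least 1 TPM. Col18a1, Col4a1 and Col1a1 rest on a single coding transcript, while Col7a1, Col9a2 and Col9a3 have a large tan portion, with 48%, 65.0% and 63.9% on coding transcripts in replicate 1.

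The machinery that folds and modifies collagen was expressed at levels well above most of the collagens. Of its 18 genes 15 reached 1 TPM in both libraries (background 46.3%), with a median difference of -0.09. The number 2-fold higher or lower was 0, which is near the background of 1.32% higher and 0.265% lower. P4hb, a subunit of the prolyl hydroxylase that stabilises the helix, stood at 187.18 and 218.97 TPM, and Ppib, a prolyl isomerase of the endoplasmic reticulum, at 202.4 and 192.01 TPM. Serpinh1, the collagen chaperone HSP47, stood at 55.37 and 102.24 TPM and had the largest difference of the list, 0.87. All 5 export genes were at 1 TPM or more (background 46.3%). Mia3 (TANGO1), which loads procollagen into carriers, stood at 44.69 and 42.43 TPM, Mia2 at 9.63 and 9.67 TPM and Sec23a at 5.92 and 9.07 TPM. The lead of Mia3 was smaller in counts, 2833 and 2340 against 1599 and 1635 for Mia2. Reads on short models weigh heavily in TPM, and the transcripts of Mia3 were not examined.

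Of 8 genes for propeptide processing 4 reached 1 TPM in both libraries, near the background of 46.3%. They were Pcolce, Pcolce2, Bmp1 and Adamts14. Pcolce, an enhancer of the C-propeptide protease, stood at 30.19 and 32 TPM and Pcolce2 at 9.41 and 7.31 TPM. Bmp1, that protease, stood at 6.7 and 7.19 TPM. Adamts14, an N-propeptide protease, stood at 4.42 and 1.71 TPM, on the 2-fold limit and lower in replicate 2 (TMM-scaled difference -1.59). Of 7 cross-linking genes 1 was 2-fold higher (background 1.32%), the transglutaminase gene Tgm2 at 1.77 and 5.78 TPM. Pxdn, which cross-links type IV collagen, stood at 8.19 and 11.54 TPM and the lysyl oxidase gene Loxl2 at 8.14 and 7.67 TPM.

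Of 10 receptor genes 4 reached 1 TPM in both libraries, near the background of 46.3%. The number 2-fold apart was 0, near the background of 1.32% higher and 0.265% lower. Itgb1, the common beta subunit of collagen-binding integrins, stood at 50.55 and 74.68 TPM. The alpha subunits Itga1, Itga2, Itga10 and Itga11 were each under 1 TPM in both libraries. Ddr1, a receptor tyrosine kinase for collagen, stood at 15.2 and 10.78 TPM and Mrc2, an uptake receptor, at 3.12 and 4.06 TPM. Among 12 breakdown genes and inhibitors the inhibitors Timp2 (4.75 and 13.18 TPM) and Timp3 (2.05 and 6.68 TPM) were 2-fold higher in replicate 2 (background 1.32%). The highest of that list were Timp1 (16.99 and 30.11 TPM), Mmp14 (12.48 and 6.48 TPM) and Mmp2 (6.59 and 12.16 TPM). Mmp14, a membrane-bound collagenase, was within 2-fold on the TPM scale and past it with TMM scaling, lower in replicate 2 (-1.21).

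Partners of type IV collagen in the basement membrane were high and within 2-fold between the libraries. All 10 were above 1 TPM (background 46.3%), with means from 11.11 to 101.5 TPM, and the median difference was 0.01. The number 2-fold apart was 0, near the background of 1.32% higher and 0.265% lower. Sparc, a collagen-binding glycoprotein, stood at 89.45 and 113.48 TPM, Lama5, a laminin chain, at 98.16 and 75.37 TPM, and Nid2, a linker of laminin and type IV collagen, at 90.51 and 63.78 TPM. With TMM scaling the median was -0.36 and 0 were 2-fold apart (background 1.34% higher and 1.49% lower).

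**Figure D5:**
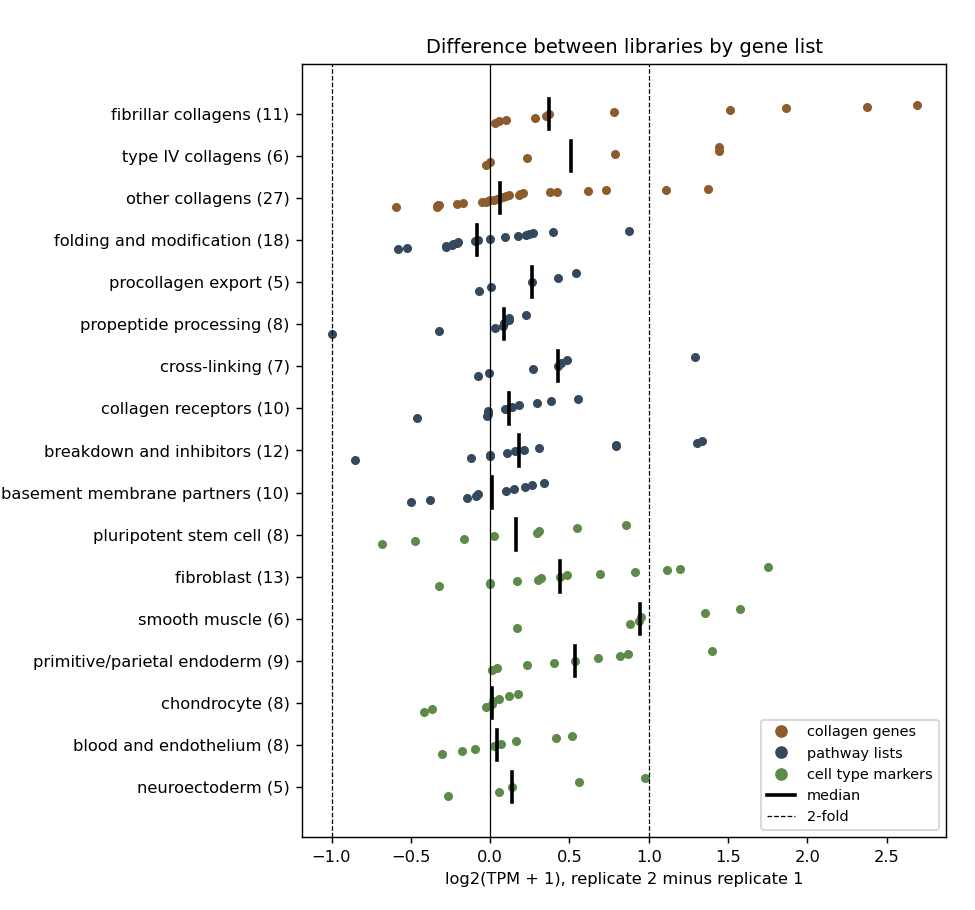
Difference of log2(TPM + 1), replicate 2 minus replicate 1, for each gene of the collagen groups (brown), pathway lists (dark blue) and cell type marker lists (green), with the number of genes in brackets; bars are medians and dashed lines mark a 2-fold difference. The collagen groups reach 2.69, folding genes and basement membrane partners stay within 2-fold, and fibroblast, smooth muscle and endoderm markers lie mostly right of 0.

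Markers of several other cell types also stood higher in replicate 2. Of 13 fibroblast markers without collagens 3 were 2-fold higher in replicate 2 (background 1.32%). The summed level of the 13 was 96.46 and 318.37 TPM. Most of that was Vim, at 88.91 and 301.94 TPM, which many cell types express. Fbln2 stood at 1.68 and 5.14 TPM and Pdgfra at 0.38 and 1.99 TPM, with Thy1 at 2.27 and 1.62 TPM. Of the 13, 10 had a positive difference and 1 a negative one. The background was 55.4% positive, with 4100 of 21474 protein-coding genes at a difference of 0. Lum and Fap had 0 counts in both libraries. Smooth muscle markers summed to 79.2 and 220.16 TPM, with Acta2 (33.04 and 100.23 TPM) and Tagln (42.26 and 109.83 TPM) 2-fold higher, Des at 2.13 and 4.76 TPM, and the mature marker Myh11 at 0.05 and 0.18 TPM.

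Markers of primitive and parietal endoderm, the lineage that lays down much type IV collagen in the embryo, summed to 1.6 and 7.87 TPM. The difference was positive for 9 of 9, against 55.4% of protein-coding genes, a share that counts genes with a difference of 0. Of the 9 markers, Ttr had only 0 and 1 counts and Afp 2 and 6. On the log2(TPM + 1) scale Dab2 (0.43 and 2.77 TPM) was 2-fold higher, and Sox17 (0.35 and 1.47 TPM) and Thbd (0.29 and 1.07 TPM) followed it in level. With TMM scaling 5 of 9 were 2-fold higher (background 1.34%). Chondrocyte markers, led by Matn3 (1.02 and 0.57 TPM), Acan (0.72 and 0.74 TPM) and Matn1 (0.94 and 0.45 TPM), summed to 3.09 and 2.42 TPM with 0 of 8 2-fold apart. Blood and endothelium markers, led by Pecam1 (23.63 and 22.04 TPM), Cd68 (6.14 and 5.3 TPM) and Tek (2.93 and 2.19 TPM), summed to 33.59 and 31.57 TPM with 0 of 8 2-fold apart. With TMM scaling 1 was, the low gene Cdh5 (0.03 and 0.47 TPM from 10 and 132 counts), higher in replicate 2 by 1.59. Ptprc had 0 and 26 counts. Of the 8, 5 had a positive difference and 3 a negative one. Neuroectoderm markers, led by Tubb3 (13.28 and 27.12 TPM), Nes (4.28 and 6.8 TPM) and Pax6 (1.37 and 0.97 TPM), summed to 19.05 and 35.16 TPM with 0 of 5 2-fold apart. Counts of 0 in lists this short are near the TPM background of 1.32% higher and 0.265% lower. With TMM scaling 4 fibroblast and 3 smooth muscle markers were 2-fold higher (background 1.34%). The part of other cells in the collagen differences was not tested, and in bulk RNA more cells of a type and more RNA per cell cannot be told apart.

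The difference between the libraries also varied with base composition. Over 10 classes of GC content of protein-coding genes averaging at least 1 TPM, the median difference was 0.40 in the class of lowest GC and -0.00394 in that of highest GC. Of the 16 collagen genes in that set 6 were in the highest class. The 8 genes that were 2-fold higher had GC contents from 46.8 to 60.6%, with Col8a1 the lowest and Col4a2 the highest. Col1a1 and Col4a2 were in the highest GC class, where 0.859% of genes were 2-fold higher in replicate 2. The others were in classes with higher shares, numbered from lowest GC. These were Col8a1 in class 3 (3.24%), Col12a1 in 4 (2.86%), Col5a2 in 5 (2.39%) and Col3a1 in 6 (2.87%). Col1a2 was in class 8 (1.34%) and Col4a1 in 9 (1.62%). The part of GC content in these differences was not tested.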

How the data were processed

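Total RNA-seq tables of 2 libraries were used. The deposited text file names mm10, the M4 annotation and transcriptome alignments as the basis of each table; which programs aligned and quantified is not stated there. Per the file headers, the authors deposited expected counts (estimated counts, fractional where reads are shared), TPM, FPKM, posterior mean TPM with interval bounds of unstated level (used as signal values), and the percent that each transcript takes of its gene (IsoPct).

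Symbols, biotypes and positions were looked up in GENCODE M21 (GRCm38, as mm10), and 42462 of 43346 genes matched. M4 and M21 models can differ. Rows named by a number (26248) and spike-ins (97) were left out. Whether counting used strand is not given, so overlapping genes are uncertain. RefSeq promoter windows matched 35 of 44 members by symbol. Exons came from the longest coding transcript. The GC content of a gene was that of its most abundant transcript.

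Differences are of log2(TPM + 1), which understates those of low genes, and no test was possible. Counts were rounded for scaling only, with TMM (edgeR 4.0.16) and DESeq2 1.42.0 size factors in R 4.3.3, tested on simulated data; scaled differences are of log2(CPM + 1). Tables were handled in pandas 2.3.3 and figures drawn in matplotlib 3.10.9 (Python 3.11.15), with numpy 2.4.6 and scipy 1.17.1. Alternatives were TPM limits of 0.5 and 5, a pseudocount of 0.1, posterior mean TPM, FPKM, rescaled TPM, both count scalings, a mean count of 10 or more, and each library alone. Named genes were collagen genes averaging at least 1 TPM or 2-fold apart and the highest and lowest of each group; for other lists, the 3 highest and those 2-fold apart. Others named were chosen after their values were seen. The members and lists were chosen with earlier results of these data known. Mmp1a is not annotated as protein-coding and was left out.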

Additional observations from a re-analysis of the deposited data

Results flagged for a closer look

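In replicate 2, 15 expected counts fell on gene-table rows whose name is only a number. These rows, 26248 in number, entered no comparison. The value is listed because it is above 3, the upper limit set by 0 observed counts, which is a limit for 1 feature and not for a sum over rows.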

How the results depend on the processing

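The number of collagen genes reaching 1 TPM in both libraries, 11, depended on the limit and the estimate used. It was 22 at 0.5 TPM (52.6% of protein-coding genes) and 6 at 5 TPM (24.4%). A rescaled TPM of 1, in effect a lower limit, gave 29 (59.2%). Posterior mean TPM gave 14 (47.3%), and each library alone 13 to 19 (47.5% and 49.3%). The number 2-fold higher in replicate 2, 8, was 14 with a pseudocount of 0.1 (background 5.65%), 11 with TMM scaling (1.34%) or DESeq2 size factors (1.44%), 9 with rescaled TPM (1.74%), and 8 with the other 3 settings. The 8 genes Col5a2, Col3a1, Col1a1, Col1a2, Col4a1, Col4a2, Col12a1 and Col8a1 passed the limit under all 6 scales and pseudocounts tried. The number 2-fold lower, 0, became 1 with TMM scaling and 1 with DESeq2 size factors (Col6a4 with TMM scaling), and stayed 0 otherwise. The median difference of 0.11 was 0.40 with a pseudocount of 0.1 and within 0.1 of the main value under the other settings. The number with the same leading transcript was 10 with TPM and with posterior mean TPM. The cause of these changes was not tested. No difference could be formed with a library left out, and no paired analysis was possible because there is 1 group.

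Among the 16 collagen genes averaging at least 1 TPM, none changed direction under the 6 settings, and Col4a5 alone passed the 2-fold limit under 3 of them (1.24 with a pseudocount of 0.1, 1.16 with TMM scaling, 1.18 with DESeq2 size factors). Members with fewer than 10 counts a library are limited by depth, and their order is not interpretable.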
